A study of Homo sapiens with 6 samples.

Results

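The genes described here are 10 members of the NRF2 pathway and its antioxidant programme, out of 18806 gene symbols in the deposited table. The regulators are NFE2L2, KEAP1 and MAFG. HMOX1, NQO1, SRXN1, TXNRD1, TXN and PRDX1 act against oxidative stress, and OSGIN1 is an oxidative stress response gene. These 10 genes were taken by name. The group was proposed because the 2 guides against METTL1 had been seen to move it in opposite directions. Their differences between the groups are therefore given as descriptions with no test. All 10 passed the filter of a mean of at least 1 TPM, which 10911 genes passed. TPM estimates a gene's share of all transcripts after correction for length, and every library has an equal total.

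The study used Mono-Mac-6 cells, which grew from a human monocytic leukaemia with the MLL-AF9 fusion, as a single clone that makes Cas9. Lentivirus brought in the control guide sgNS or a guide against METTL1, either sgMETTL1.3 or sgMETTL1.6. The library names of all 3 groups also carry EV, which the labels do not explain. Blasticidin (10 µg/ml) and, for 1 to 2 weeks, hygromycin B (200 µg/ml) were present in all 3 groups, and cells were taken 8 to 10 days past transduction. Poly(A) RNA was sequenced from 2 libraries per group, 6 in all. Separate cultures for the replicates are not stated in the labels, and the p-values below rest on library-to-library spread alone, which may be technical. TPM keeps no depth, so no counting interval is given. Of 11 markers fixed for this cell type 9 reached 1 TPM, led by LYZ, FLT3 and SPI1, and CD14 and CSF1R stayed below 1 TPM in every library. The summed TPM of these markers was 13485 to 14028 with sgNS, 12827 to 12965 with sgMETTL1.3 and 11329 to 11771 with sgMETTL1.6, a sum that is mostly LYZ (10839 to 11419, 10744 to 10827, and 9206 to 9620 TPM). The other markers did not follow it as 1 group. SPI1 held 263 to 272, 331 to 336, and 272 to 298 TPM, and FLT3 1800 to 1824, 1299 to 1361, and 1389 to 1444 TPM. CD33 held 48.8 to 51.2 TPM over all libraries. Group means in the same order were 233, 191 and 169 TPM for CD68, which had the order of LYZ. PTPRC (106, 68.1 and 79.7 TPM), MPO (87.2, 57.9 and 67.9) and ITGAM (4.2, 2.1 and 2.6) were lower with both METTL1 guides. ANPEP was higher with sgMETTL1.3 only (65.7, 76.5 and 65.7 TPM). The part of these shifts in the results below was not tested. The B cell marker MS4A1, the T cell markers CD3D, CD3E and CD3G, the erythroid marker HBB and the platelet gene PF4 were listed at 0 in all libraries. Markers of B, T, erythroid, megakaryocyte and fibroblast cells summed to at most 2.88 TPM per list, and epithelial markers, led by KRT18 and KRT8, to 12.8 to 17.1 TPM.

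The mRNA of the targeted gene was below control with 1 guide only. METTL1, whose protein places N7-methylguanosine on tRNAs, stood at 15.38 and 13.89 TPM with sgNS, 18.29 and 16.56 TPM in the libraries labelled sgMETTL1.3, and 11.15 and 11.69 TPM in those labelled sgMETTL1.6. Its mRNA was thus highest in the libraries labelled sgMETTL1.3, the order that HMOX1 also had, and gene-level TPM checks neither the cut nor the protein. WDR4, the partner of METTL1, held 21.45 and 26.11, 35.46 and 35.63, and 30.65 and 34.36 TPM in the same order of groups. Every direction below is drawn from the libraries as labelled.

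NRF2, encoded by NFE2L2, is a bZIP transcription factor that pairs with a small MAF protein such as MAFG and binds antioxidant response elements near genes for detoxification, NADPH supply, haem breakdown and the thioredoxin and glutathione systems. KEAP1 holds NRF2 in the cytoplasm and presents it to the CUL3 ubiquitin ligase for degradation. Electrophiles and oxidants modify KEAP1 and let NRF2 build up, a step that acts on the protein and not on its mRNA. The factor BACH1, a haem sensor, competes for the same elements and holds HMOX1 down. No row was matched to BACH1 here, so its level is not given.

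Stretches of promoter are shown first, because NRF2 acts through response elements. Whether a match goes with the direction in which a member moved was not tested. RefSeq start sites on GRCh38.p14 were matched for 8 of the 10 members, in 11 windows of 300 bases (250 before the start and 50 from it on). HMOX1 and PRDX1 were not matched. The response element core was searched as TGACNNNGC on both strands. It lay in 3 of the 11 windows, belonging to TXNRD1 and KEAP1, and in 13.3% of the 35116 windows of all genes. The longer form, with an A after the core, so that its matches are all also matches to the core, lay in 2 of the 11 windows and in 3.18% of all. The AP-1 site TGANTCA lay in 1 of the 11, that of OSGIN1, and in 7.71% of all. The heat shock element GAANNTTC (6.77% of all windows) and the CEBP-ATF site TGATGCAA (0.866%) had no match in these 11. Below, the 151 bases that end at the start site are printed 5′ to 3′ on the gene's strand, with matches to the response element in capitals for TXNRD1 and KEAP1 and the AP-1 match in capitals for OSGIN1.
TXNRD1, first start, chr12:104215629-104215779, plus strand: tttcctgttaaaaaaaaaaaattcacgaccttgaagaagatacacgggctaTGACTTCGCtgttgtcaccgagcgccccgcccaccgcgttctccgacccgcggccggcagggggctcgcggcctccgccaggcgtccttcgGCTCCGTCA
TXNRD1, second start, chr12:104286882-104287032, plus strand: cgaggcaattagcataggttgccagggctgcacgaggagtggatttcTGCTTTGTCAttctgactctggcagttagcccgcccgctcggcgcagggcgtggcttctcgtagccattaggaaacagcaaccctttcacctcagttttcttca
KEAP1, chr19:10502771-10502921, minus strand: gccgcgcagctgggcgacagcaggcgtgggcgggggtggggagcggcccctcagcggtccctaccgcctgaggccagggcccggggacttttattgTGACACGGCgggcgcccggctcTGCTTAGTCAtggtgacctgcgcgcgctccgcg
OSGIN1, chr16:83953090-83953240, plus strand: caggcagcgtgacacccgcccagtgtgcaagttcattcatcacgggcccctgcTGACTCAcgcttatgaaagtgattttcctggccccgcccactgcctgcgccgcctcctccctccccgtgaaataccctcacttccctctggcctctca

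At the first TXNRD1 start there was a match on each strand, TGACTTCGC on its own and TGACGGAGC on the opposite one. At the second TXNRD1 start the match was on the opposite strand, where it reads TGACAAAGCA. KEAP1 had a match on each strand of the window printed, TGACACGGC on its own and TGACTAAGCA on the opposite one. Its other window had no match. A match is a description of letters in a short window, and elements farther from a start site were not searched.

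Levels of the 10 members spread widely. PRDX1 was the highest, at 1531 to 1725 TPM over the 6 libraries and a mean that exceeded 99.2% of genes tested. MAFG (148 to 201 TPM), TXN (154 to 186), NFE2L2 (126 to 153), KEAP1 (102 to 129) and TXNRD1 (80.3 to 104) followed. In that order MAFG and TXN overlapped, as did NFE2L2 and KEAP1, and KEAP1 and TXNRD1. NQO1 held 32.0 to 52.8 TPM and overlapped with neither neighbour. SRXN1 (17.8 to 26.0 TPM) and HMOX1 (7.15 to 23.0) overlapped, and OSGIN1 was the lowest, at 1.00 to 3.98 TPM.

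The members HMOX1, OSGIN1, NQO1, SRXN1 and TXNRD1 were higher with sgMETTL1.3 and lower with sgMETTL1.6 than with sgNS, with no overlap between any of the groups. TXN and PRDX1 had the opposite order, by small steps. NFE2L2 and MAFG were lower, and KEAP1 higher, in all 4 METTL1 guide libraries than in both controls. So 5 members had the first pattern, which 3.13% of all genes tested had, and 2 the second, which 1.37% had. Another 2 were lower in all 4 guide libraries, like 27.3% of genes tested, and 1 was higher, like 32.9%. Taken one comparison at a time, the libraries of sgMETTL1.3 lay above both controls for 6 members (46.2% of all genes tested) and below them for 4 (33.7%). Those of sgMETTL1.6 lay above both controls for 3 (37.8%) and below them for 7 (37.0%), and above those of sgMETTL1.3 for 2 (19.5%) and below them for 8 (43.0%). These patterns chose the group, so nothing is read from their frequency. In bulk RNA, a lower level in every cell and fewer cells at a high level cannot be told apart.

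**Figure D1:**
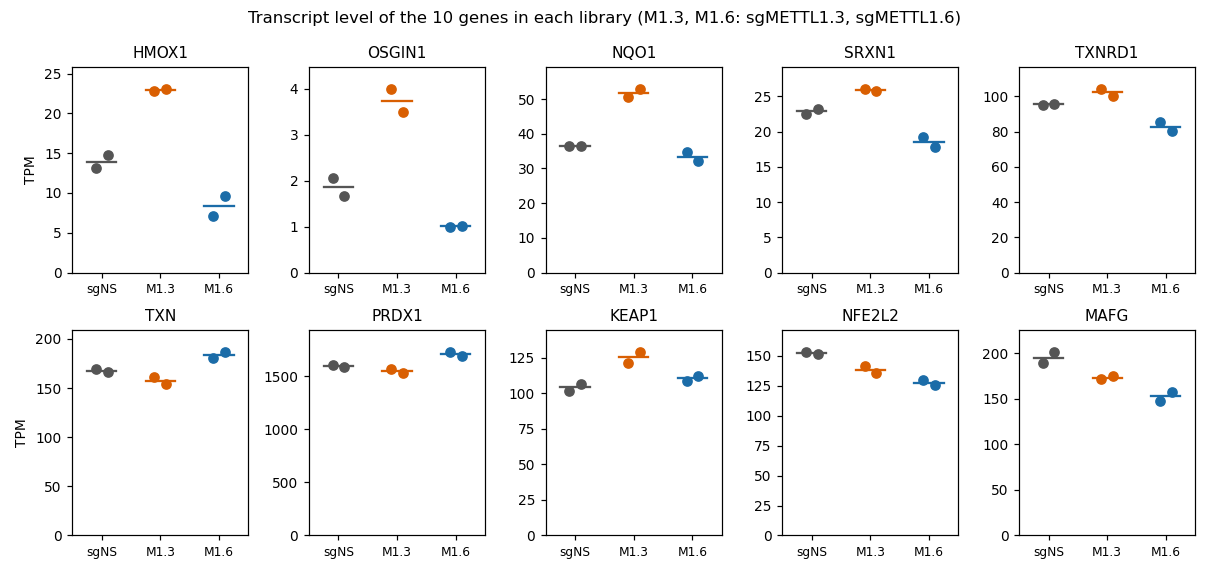
TPM (vertical axis, from 0, with its own scale for each gene) of the 10 members in the 2 libraries of each guide (points) with the group mean (line). HMOX1 ranges from 7.15 TPM in a library of sgMETTL1.6 to 23.0 TPM in one of sgMETTL1.3, while PRDX1 stays between 1531 and 1725 TPM.

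HMOX1 (ENSG00000100292.16, chromosome 22, 35380361 to 35394214, plus strand of GRCh38) encodes haem oxygenase 1, which breaks haem down to biliverdin, iron and carbon monoxide. It stood at 13.09 and 14.75 TPM with sgNS, 22.78 and 23.00 with sgMETTL1.3, and 7.15 and 9.58 with sgMETTL1.6. Both libraries of sgMETTL1.3 were above both controls and both of sgMETTL1.6 were below them. The sgMETTL1.3 mean was 1.64 times the control mean and the sgMETTL1.6 mean was 0.601 times it. On the scale used for all differences here, log2(TPM + 1), the differences from control were 0.68 and -0.68, each with a standard error (SE) of 0.0998, and the guides differed by -1.36 (sgMETTL1.6 minus sgMETTL1.3). The replicates of sgMETTL1.6 were the farthest apart, by 0.376 on that scale. Without sgMETTL1.6 replicate 1 the difference of that guide from control was -0.49, and without its replicate 2 it was -0.87. Over all settings tried, the difference between the guides ran from -1.55 to -1.07.

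OSGIN1 (ENSG00000140961.12, chromosome 16, 83948282 to 83966332, plus strand), an oxidative stress response gene that restrains growth, held 2.06 and 1.67 TPM with sgNS, 3.98 and 3.48 with sgMETTL1.3, and 1.00 and 1.01 with sgMETTL1.6. The groups did not overlap, and the sgMETTL1.6 mean was 0.269 times the sgMETTL1.3 mean of 3.73 ± 0.354 TPM (SD, n = 2). The log2 differences from control were 0.72 ± 0.11 for sgMETTL1.3 and -0.51 ± 0.11 (SE) for sgMETTL1.6. At this low level the pseudocount sets the size: between the guides the difference was -1.24, but -1.79 with a pseudocount of 0.1 TPM and -0.54 with 5 TPM. In the annotation the gene overlaps AC009119.2 on the same strand.

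NQO1 (ENSG00000181019.12, chromosome 16, 69706996 to 69726951, minus strand) encodes a quinone reductase that uses NADPH and is the standard reporter gene of NRF2. Its levels were 36.38 and 36.39 TPM with sgNS, 50.72 and 52.76 with sgMETTL1.3, and 34.67 and 32.01 with sgMETTL1.6. The step up with sgMETTL1.3 (log2 difference 0.50 ± 0.051, SE) was far larger than the gap between replicates, and the step down with sgMETTL1.6 (-0.12 ± 0.051) was close to the gap of 0.112 between that guide's own libraries. Without sgMETTL1.6 replicate 2 the latter difference was -0.068. Between the guides NQO1 differed by -0.62 ± 0.051.

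SRXN1 (ENSG00000271303.1, chromosome 20, 646615 to 653370, minus strand) encodes sulfiredoxin, which repairs over-oxidised peroxiredoxins. It held 22.55 and 23.19 TPM with sgNS, 25.99 and 25.81 with sgMETTL1.3, and 19.31 and 17.79 with sgMETTL1.6. All 3 groups were apart, with log2 differences from control of 0.17 ± 0.057 and -0.29 ± 0.057 (SE). The annotation places AL121758.1 on the same strand over it, so the 2 could share reads.

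TXNRD1 (ENSG00000198431.15, chromosome 12, 104215779 to 104350305, plus strand) encodes the cytosolic thioredoxin reductase, the selenoprotein that keeps thioredoxin reduced. It stood at 95.31 and 95.93 TPM with sgNS, 103.94 and 100.47 with sgMETTL1.3, and 85.18 and 80.28 with sgMETTL1.6. The log2 difference from control was 0.095 ± 0.042 for sgMETTL1.3 and -0.21 ± 0.042 (SE) for sgMETTL1.6. The first of these was 0.047 after median-ratio scaling and 0.048 with ribosomal protein genes left out of the total. TPM per gene does not say which of the starts printed above was used. In the annotation TXNRD1 overlaps EID3 and the pseudogene RPL18AP3 on the same strand, so reads could be shared.

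TXN (ENSG00000136810.12, chromosome 9, 110243811 to 110256640, minus strand), the cytosolic thioredoxin that TXNRD1 reduces, went the other way. It held 169.26 and 165.85 TPM with sgNS, 161.47 and 153.82 with sgMETTL1.3, and 181.01 and 186.31 with sgMETTL1.6. Its log2 differences from control were -0.088 ± 0.038 and 0.13 ± 0.038 (SE). The first was -0.14 under either other scaling and -0.053 without sgMETTL1.3 replicate 2. The annotation names 7 pseudogenes of TXN, which were not analysed here and could share its reads.

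PRDX1 (ENSG00000117450.13, chromosome 1, 45511036 to 45523047, minus strand), an abundant peroxiredoxin that removes hydrogen peroxide with electrons from thioredoxin, followed TXN. Its levels were 1606 and 1591 TPM with sgNS, 1565 and 1531 with sgMETTL1.3, and 1725 and 1692 with sgMETTL1.6. The groups did not overlap, but the log2 differences of -0.046 ± 0.026 and 0.096 ± 0.026 (SE) were the smallest of the 10 members in their comparisons but for that of KEAP1 with sgMETTL1.6. The difference for sgMETTL1.3 was -0.094 after median-ratio scaling, -0.093 without ribosomal protein genes and -0.030 without sgMETTL1.3 replicate 2. PRDX1 has 1 named pseudogene and overlaps MMACHC on the opposite strand.

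**Figure D2:**
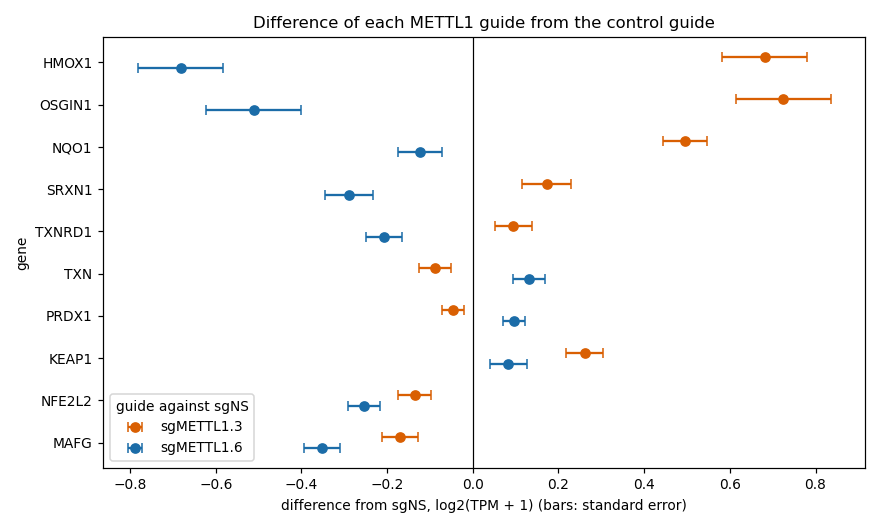
Difference of each METTL1 guide from sgNS on the log2(TPM + 1) scale (horizontal axis) for the 10 members, points with bars of 1 standard error from the linear model. HMOX1 lies at 0.68 and -0.68, while NFE2L2 and MAFG lie below 0 and KEAP1 above 0 for both guides.

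The regulators did not split by guide. NFE2L2 (ENSG00000116044.15, chromosome 2, 177227595 to 177392697, minus strand) held 152.99 and 151.76 TPM with sgNS, 141.56 and 135.67 with sgMETTL1.3, and 129.62 and 125.72 with sgMETTL1.6. Each library of either METTL1 guide was below both controls, with log2 differences of -0.14 ± 0.038 and -0.25 ± 0.038 (SE). The libraries of sgMETTL1.6 were also below those of sgMETTL1.3, by -0.12, or -0.072 after median-ratio scaling. The gene overlaps AGPS on the opposite strand.

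MAFG (ENSG00000197063.10, chromosome 17, 81918270 to 81927714, minus strand), the small MAF partner of NRF2, had the same order. It stood at 188.80 and 200.97 TPM with sgNS, 171.41 and 174.91 with sgMETTL1.3, and 147.89 and 157.22 with sgMETTL1.6, with log2 differences from control of -0.17 ± 0.042 and -0.35 ± 0.042 (SE). It overlaps SIRT7 on the same strand.

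KEAP1 (ENSG00000079999.13, chromosome 19, 10486120 to 10503741, minus strand), the NRF2 inhibitor, held 101.72 and 106.63 TPM with sgNS, 121.43 and 128.68 with sgMETTL1.3, and 108.31 and 112.39 with sgMETTL1.6. It was highest with sgMETTL1.3, by a log2 difference from control of 0.26 ± 0.043 (SE). With sgMETTL1.6 the difference of 0.082 ± 0.043 was close to the spread between replicates, and it was 0.049 without sgNS replicate 1.

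Over the 10 members the median log2 difference was 0.13 for sgMETTL1.3 against sgNS, -0.23 for sgMETTL1.6 against sgNS and -0.24 for sgMETTL1.6 against sgMETTL1.3. The medians over all 10911 genes were 0.043, 0.00055 and -0.050. As a description and not as a test, since the contrasts chose the members, 7, 8 and 10 members lay past the threshold used for all genes (limma, adjusted p under 0.05), as did 58.5%, 51.0% and 23.0% of all genes tested. With sgMETTL1.3 5 were higher (34.3% of all genes) and 2 lower (24.2%), with sgMETTL1.6 2 were higher (25.7%) and 6 lower (25.3%), and between the guides 2 were higher (7.23%) and 8 lower (15.8%) with sgMETTL1.6. Nothing is read from these counts. Both comparisons with control share the sgNS libraries.

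The rest of the pathway was examined with 7 lists of 107 genes chosen by known role, with earlier results of these data known, of which 90 passed the filter. Against sgNS, 44 of the 90 rose and 14 fell with sgMETTL1.3 (64.4% called, beside 58.5% of all genes), and 31 rose and 21 fell with sgMETTL1.6 (57.8%, beside 51.0%). Between the guides, 8 were higher and 32 lower with sgMETTL1.6 (44.4%, beside 23.0%), with a median log2 difference of -0.091. The 8 higher became 2 without sgMETTL1.3 replicate 2, 3 without sgMETTL1.3 replicate 1 and 4 without sgMETTL1.6 replicate 1. Over all genes, 789 (7.23%) were higher and 1721 (15.8%) lower with sgMETTL1.6 than with sgMETTL1.3. That majority turned to 1102 higher and 809 lower after median-ratio scaling, and was 932 and 967 without ribosomal protein genes. Under the same scalings the pathway lists had 10 higher and 27 lower each. With sgMETTL1.3 against sgNS, 3743 of all genes were higher and 2642 lower, which turned to 3080 and 3182 after median-ratio scaling and to 3087 and 3123 without ribosomal protein genes. The pathway lists then had 37 higher and 16 lower, and 38 and 18. Without sgMETTL1.3 replicate 2 the pathway count between the guides was 26 and not 40. The count over all genes was then 1214, and it was 1267 without sgMETTL1.3 replicate 1 and 1439 without sgMETTL1.6 replicate 1, not 2510.

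**Figure D3:**
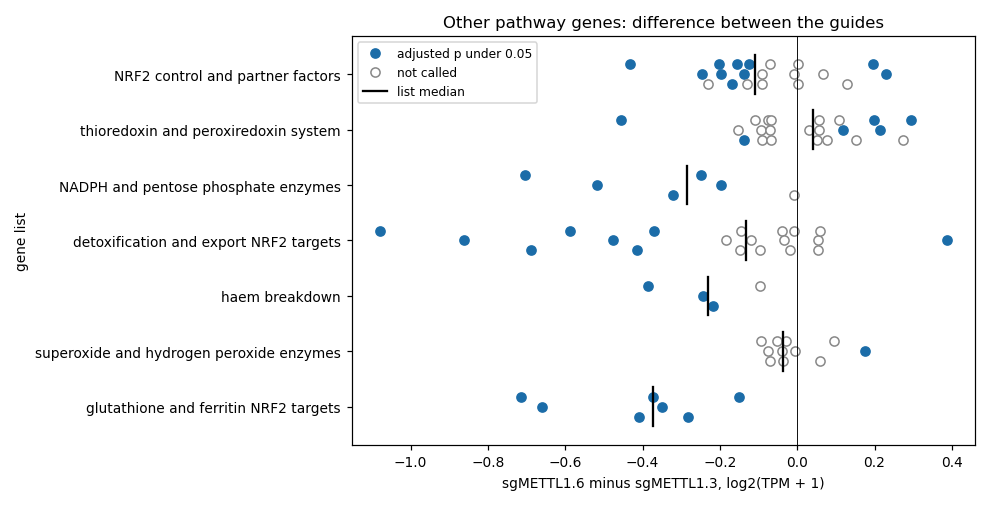
Difference between sgMETTL1.6 and sgMETTL1.3 on the log2(TPM + 1) scale (horizontal axis) for the 90 tested genes of 7 pathway lists, filled where the adjusted p was under 0.05, with each list's median as a bar. The list medians run from -0.37 for glutathione and ferritin genes to 0.041 for the thioredoxin and peroxiredoxin system.

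A list of 6 enzymes held those that make NADPH, the reductant of NQO1 and TXNRD1, together with TALDO1 and TKT, non-oxidative enzymes of the pentose phosphate pathway that make none. Between the guides 5 of the 6 were lower with sgMETTL1.6, TALDO1 and TKT among them, and none was higher (83.3% called, beside 23.0% of all genes), with a median log2 difference of -0.28. With sgMETTL1.3, 4 rose and 1 fell against sgNS (83.3%, beside 58.5%), and with sgMETTL1.6 none rose and 3 fell (50%, beside 51.0%).

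PGD, an oxidative enzyme of the pentose phosphate pathway, differed between the guides by -0.32 (limma adjusted p = 3.3e-05). TALDO1, a transaldolase, rose with sgMETTL1.3 by 0.25 (adjusted p = 1.2e-05) and differed between the guides by -0.20 (adjusted p = 7.3e-04). ME1, the cytosolic malic enzyme, held 12.13 and 11.99 TPM with sgNS, 12.88 and 14.18 with sgMETTL1.3, and 8.60 and 7.28 with sgMETTL1.6. It fell with sgMETTL1.6 by 0.55 (adjusted p = 8.6e-05) and differed between the guides by -0.70 (adjusted p = 8.4e-05). TKT, a transketolase, fell with sgMETTL1.6 by 0.12 (adjusted p = 0.037), a call lost without sgMETTL1.6 replicate 1 (-0.056, adjusted p = 0.31) and without sgNS replicate 2 (-0.081, adjusted p = 0.24); its difference was -0.17 without sgMETTL1.6 replicate 2. IDH1, which makes NADPH from isocitrate, fell with both guides, by 0.34 each (adjusted p = 3.3e-06 and 3.6e-06).

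Detoxification and export genes had 33 listed members, of which 20 were tested. With sgMETTL1.3 12 rose and 2 fell (70.0% called, beside 58.5% of all genes), and with sgMETTL1.6 8 rose and 2 fell (50%, beside 51.0%). Between the guides 1 was higher and 7 lower with sgMETTL1.6 (40.0%, beside 23.0%). TRIM16L held 8.45 and 8.96 TPM with sgNS, 17.76 and 17.05 with sgMETTL1.3, and 7.75 and 7.67 with sgMETTL1.6. It differed between the guides by -1.08 ± 0.066 (SE, adjusted p = 4.5e-07) and is a near copy of TRIM16, with which it could share reads. SLC48A1, a haem transporter, held 7.52 and 7.82, 13.39 and 13.86, and 6.83 and 7.28 TPM in the same order, and the guides differed by -0.86 (adjusted p = 4.9e-06).

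PIR, an iron-binding nuclear protein known as an NRF2 target, held 12.02 and 10.36 TPM with sgNS, 22.01 and 21.07 with sgMETTL1.3, and 12.23 and 13.78 with sgMETTL1.6. It rose with sgMETTL1.3 by 0.89 (adjusted p = 7.3e-07) and with sgMETTL1.6 by 0.20 (adjusted p = 0.044). The call with sgMETTL1.6 is near the threshold and was not checked with a library left out. Its lower library, at 12.23 TPM, was close to the higher control, at 12.02 TPM. The guides differed by -0.69 (adjusted p = 7.8e-05). EPHX1, the microsomal epoxide hydrolase, rose with sgMETTL1.3 by 0.64 (adjusted p = 1.7e-07) and with sgMETTL1.6 by 0.23 (adjusted p = 0.0015). With sgMETTL1.6 the lowest p-values of the list were those of the aldehyde reductase AKR1A1 (-0.45, adjusted p = 1.1e-06), the carbonyl reductase CBR1 (0.37, adjusted p = 1.3e-05) and the exporter ABCC4 (0.34, adjusted p = 1.0e-04), and these were called in the same direction with sgMETTL1.3 (-0.45, 0.31 and 0.46, adjusted p = 1.0e-06, 3.7e-05 and 5.6e-06). CBR3 was the gene of the list that was higher with sgMETTL1.6 than with sgMETTL1.3 (0.39, adjusted p = 0.0071, and 0.27 with adjusted p = 0.072 without sgMETTL1.3 replicate 1), named after its value was seen. The NRF2 targets AKR1B10, AKR1B15 and AKR1C4 were listed at 0, and AKR1C1, AKR1C2 and AKR1C3 had means of 0.805, 0.0867 and 0.14 TPM and were not tested.

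Genes of haem breakdown beside HMOX1 numbered 4, of which 3 rose with sgMETTL1.3 and none fell (75.0% called, beside 58.5% of all genes), and 3 rose and 1 fell with sgMETTL1.6 (100%, beside 51.0%). With sgMETTL1.6 3 were lower than with sgMETTL1.3 (75.0%, beside 23.0%). BLVRA, the biliverdin reductase that acts on the product of haem oxygenase, held 16.64 and 17.43 TPM with sgNS, 37.50 and 39.38 with sgMETTL1.3, and 29.52 and 28.86 with sgMETTL1.6. It rose with both guides, by 1.13 and 0.74 (adjusted p = 2.0e-09 and 1.5e-07), and differed between them by -0.39 (adjusted p = 4.2e-04). BLVRA thus rose with sgMETTL1.6, where HMOX1 was lower than control.

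HMOX2, the constitutive haem oxygenase, rose with both guides, by 0.47 and 0.37 (adjusted p = 2.8e-06 and 3.0e-05). POR, which passes electrons to haem oxygenase, rose with both guides, by 0.47 and 0.23 (adjusted p = 1.2e-05 and 0.0043), and differed between the guides by -0.24 (adjusted p = 0.0095). BLVRB, the flavin and biliverdin reductase, fell with sgMETTL1.6 by 0.30 (adjusted p = 3.3e-04) and differed between the guides by -0.22 (adjusted p = 0.011). Without sgMETTL1.3 replicate 2 these guide differences were -0.16 for POR (adjusted p = 0.10) and -0.15 for BLVRB (adjusted p = 0.11), and without sgMETTL1.6 replicate 1 that of POR had an adjusted p of 0.0503.

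Of the other 22 genes of the thioredoxin and peroxiredoxin system, 7 rose and 6 fell with sgMETTL1.3 (59.1% called, beside 58.5% of all genes), and 8 rose and 4 fell with sgMETTL1.6 (54.5%, beside 51.0%). Between the guides 4 were higher and 2 lower with sgMETTL1.6 (27.3%, beside 23.0%), so that the shares called were near those of all genes in each comparison. TXNIP, which binds and inhibits thioredoxin, fell with both guides, from 349 and 351 TPM to 173 and 174, and to 165 and 160 TPM, by 1.01 and 1.10 (adjusted p = 5.3e-11 and 1.8e-11). SESN2, a sestrin that is also an ATF4 target, fell from 172 and 182 TPM to 33.8 and 35.6, and to 23.9 and 26.2 TPM, and the guides differed by -0.46 (adjusted p = 1.2e-04). MSRB1, a selenoprotein that reduces methionine sulfoxide, rose from 37.7 and 37.9 TPM to 79.2 and 79.4, and to 69.8 and 74.2 TPM (1.05 and 0.91, adjusted p = 6.7e-10 and 3.3e-09).

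PRDX3, the mitochondrial peroxiredoxin, held 310 and 258 TPM with sgNS, 242 and 244 with sgMETTL1.3, and 308 and 288 with sgMETTL1.6. It was higher with sgMETTL1.6 than with sgMETTL1.3 by 0.29 (adjusted p = 0.0067), as was TXNDC17, a small thioredoxin-like protein, by 0.21 (adjusted p = 0.016). Left-out libraries ended the TXNDC17 call, with adjusted p = 0.071 and 0.074 without sgMETTL1.3 replicates 1 and 2 and 0.070 without sgMETTL1.6 replicate 1.

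Of 20 tested factors that control or partner NRF2, 7 rose and 3 fell with sgMETTL1.3 (50% called, beside 58.5% of all genes), and 6 rose and 6 fell with sgMETTL1.6 (60.0%, beside 51.0%). Between the guides 2 were higher and 8 lower with sgMETTL1.6 (50%, beside 23.0%). NFE2L1, the NRF1 relative of NRF2, fell from 231 and 240 TPM to 142 and 141, and to 118 and 120 TPM, by 0.73 and 0.98 (adjusted p = 3.2e-09 and 1.7e-10). SQSTM1, the p62 protein that sequesters KEAP1 and is itself an NRF2 target, held 243.77 and 250.83 TPM with sgNS, 216 and 222 with sgMETTL1.3, and 160 and 165 with sgMETTL1.6. It fell with both guides, by 0.17 and 0.60 (adjusted p = 9.7e-04 and 2.1e-08), and differed between the guides by -0.43 (adjusted p = 5.5e-06).

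PGAM5, a mitochondrial phosphatase that binds KEAP1, rose with both guides, by 0.50 each (adjusted p = 6.5e-07 and 7.6e-07). AMER1, the WTX protein, rose with both guides, by 0.70 and 0.47 (adjusted p = 6.6e-06 and 2.5e-04), or 0.42 and 0.27 with a pseudocount of 5 TPM. RBX1, the RING subunit of CUL3 ligases, was higher with sgMETTL1.6 than with sgMETTL1.3 by 0.20 (adjusted p = 0.0075, and 0.077 without sgMETTL1.3 replicate 2). CUL3 itself had log2 differences of 0.061 and 0.063 from control and was not called with either guide (adjusted p = 0.31 each).

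Of 11 tested enzymes of superoxide and hydrogen peroxide removal, 1 was higher and none lower with sgMETTL1.6 than with sgMETTL1.3 (9.09% called, beside 23.0% of all genes), with a median log2 difference of -0.037 beside -0.050 over all genes. SELT, the gene of selenoprotein T, was the 1 that passed (0.18, adjusted p = 0.024). Its adjusted p was 0.14, 0.055 and 0.17 without sgMETTL1.3 replicate 1, sgMETTL1.3 replicate 2 and sgMETTL1.6 replicate 1, the last with a difference of 0.12. Against sgNS 6 rose and 1 fell with sgMETTL1.3 (63.6%, beside 58.5%), and 5 rose and 1 fell with sgMETTL1.6 (54.5%, beside 51.0%). SOD1, the cytosolic superoxide dismutase, rose from 220 and 229 TPM to 260 and 263, and to 272 and 286 TPM (0.22 and 0.31, adjusted p = 2.1e-04 and 1.3e-05).

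Of the same list, SOD2 rose with both guides, by 0.26 and 0.17 (adjusted p = 6.1e-04 and 0.013), as did SEPW1, by 0.35 each (adjusted p = 7.9e-04 and 0.0012), and PARK7, by 0.13 and 0.19 (adjusted p = 0.0033 and 3.1e-04). OXR1 fell with both, by 0.25 and 0.30 (adjusted p = 0.0020 and 6.3e-04). SEPW1 differed by 0.21 with sgMETTL1.6 when that guide's replicate 2 was left out. The SOD2 call with sgMETTL1.6 was lost without sgNS replicate 1 (0.12, adjusted p = 0.14). That of PARK7 with sgMETTL1.3 was lost without sgMETTL1.3 replicate 2 (0.098, adjusted p = 0.055) and after median-ratio scaling (0.083, adjusted p = 0.0504).

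All 7 tested genes of glutathione and ferritin that NRF2 controls were lower with sgMETTL1.6 than with sgMETTL1.3 (100% called, beside 23.0% of all genes), with a median log2 difference of -0.37. Against sgNS 5 rose and 1 fell with sgMETTL1.3 (85.7%, beside 58.5%), and 1 rose and 4 fell with sgMETTL1.6 (71.4%, beside 51.0%). They included FTH1, FTL, GSR and SLC7A11, with differences of -0.71, -0.41, -0.37 and -0.66 (adjusted p = 1.5e-09, 6.6e-07, 3.2e-05 and 8.1e-06). FTH1, the ferritin heavy chain, stood on either side of control, at 4055 and 4017 TPM with sgMETTL1.3 and 2455 and 2466 with sgMETTL1.6 beside 3339 and 3369 with sgNS. FTL, the light chain, rose with sgMETTL1.3 by 0.41 (adjusted p = 4.8e-08) and was not called with sgMETTL1.6 (-0.0021, adjusted p = 0.95). GPX4, a lipid peroxide reductase named after its values were seen, rose with sgMETTL1.3 by 0.23 (adjusted p = 3.2e-05). With sgMETTL1.6 its difference of 0.078 passed (adjusted p = 0.048), but not without either sgNS library (adjusted p = 0.15 each), without either sgMETTL1.3 library (0.063 each), without sgMETTL1.6 replicate 2 (0.25) or under either other scaling (0.065 and 0.099). SLC7A11, the cystine importer and also an ATF4 target, was far below control with both guides, at 21.9 and 21.1, and 13.8 and 12.7 TPM, beside 75.3 and 71.2 TPM.

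On the log2(TPM + 1) scale HMOX1 had the widest range of group means of the 10 members, 1.36, and was taken as the gene to match. With a pseudocount of 0.1 TPM OSGIN1 ranged wider, with a guide difference of -1.79, and in TPM the ratio of sgMETTL1.6 to sgMETTL1.3 was 0.269 for OSGIN1 and 0.365 for HMOX1. The 5 genes most like it over the 6 libraries, among 1388 genes outside the members with a range of at least 0.5, were CTSD (Pearson r = 0.996), TPSAB1 (0.988), IFI30 (0.985), TPSB2 (0.973) and ITGA6 (0.972). The 6 points fall into 3 groups of 2 libraries, so r mostly follows the group means, and no test is given. CTSD, the lysosomal protease cathepsin D, held 502 and 516 TPM with sgNS, 589 and 610 with sgMETTL1.3, and 400 and 437 with sgMETTL1.6. IFI30, a lysosomal thiol reductase, held 119 and 123, 146 and 147, and 98.4 and 99.4 TPM. TPSAB1 and TPSB2 are near-identical tryptase genes that can share reads. Among the members themselves r with HMOX1 was 0.955 for OSGIN1, 0.925 for SRXN1, 0.898 for TXNRD1 and 0.893 for NQO1, and -0.921 for TXN and -0.968 for PRDX1.

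**Figure D4:**
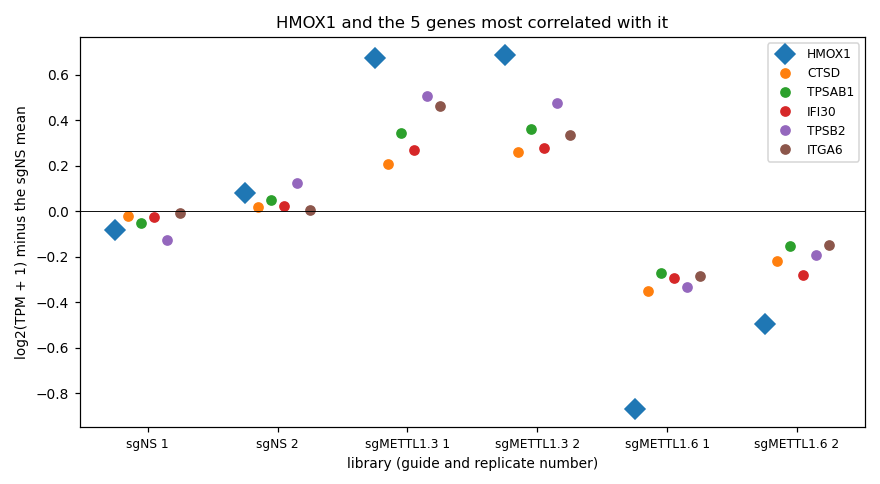
Level of HMOX1 and of the 5 genes most correlated with it in each library (horizontal axis), as log2(TPM + 1) minus the mean of the 2 sgNS libraries (vertical axis). The sgMETTL1.3 libraries lie above 0 and the sgMETTL1.6 libraries below 0 for all 6 genes, and of these 6 HMOX1 spans the widest range.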

How the data were processed

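RNA was measured in 6 libraries, 2 for each of 3 guides. The authors deposited TPM in 1 table with 18806 gene symbols. RSEM 1.2.31 and the build GRCh38 are named in the submitters' processing notes. Which aligner and which annotation served is not given in the sources used here. RSEM divides reads between similar transcripts by a model, and the equal totals of TPM mean that abundant genes shift the rest. Depth is unknown. Column names gave the sample of all 6 columns. RNA was extracted with TRIzol or QIAzol (the labels' protocols and design text differ), and a stranded kit was used.

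The log2(TPM + 1) values went into limma 3.58.1 under R 4.3.3 (all 3 groups in 1 model, variance trend, 3 residual and 9.84 prior degrees of freedom). Testing covered the 10911 genes whose mean reached 1 TPM, and a Benjamini-Hochberg adjusted p under 0.05 made a call. The log2 scale with a pseudocount understates changes of low genes. The test was checked on simulated data with independent noise in each library, which cannot show how it behaves if replicates share a culture. Members and lists were chosen with earlier results of these data known. The text names all members, METTL1 and WDR4, of each list the 3 genes with the lowest p among those called in each comparison, and the 5 genes most correlated with the member of widest range. Of the genes this rule names, 1 is not reported here. Of the 107 list genes 105 were matched, 4 under an older symbol. BACH1 and CES1 were not matched. Other genes were named after their values were seen: MS4A1, CBR3, CUL3, GPX4, TRIM16, the AKR1 genes below the filter, and members of the marker list. Gene positions are from GENCODE 29 on GRCh38, promoters from RefSeq on GRCh38.p14. Alternatives were 2 other pseudocounts, 2 other filters, 2 other scalings, a fit with no variance trend, a block by replicate number, and leaving out each library.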

Additional observations from a re-analysis of the deposited data

How the results depend on the processing

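No member changed the sign of any of its 3 differences under the 14 alternatives (13 for OSGIN1, which a filter at 5 TPM removes). The size was less stable. Of these values, 377 lay within the pooled SD of the gene's replicates from the main value, and 40 lay farther off. Of the counts, those between the guides depended on the setting. Over all genes the 2510 called became 1023 with no filter on low values and 1409 without the variance trend, and lay between 1214 and 2469 with 1 library left out. Over the pathway lists the 40 called became 24 with no filter, and lay between 26 and 39 with 1 library left out. The cause was not tested. Counts against sgNS stayed within 1.5 times. With no filter 15671 genes are tested. The pathway lists' counts lay between 52 and 58 for sgMETTL1.3 and between 42 and 51 for sgMETTL1.6 with 1 library left out. Among the values of named list genes under the alternatives, 1025 kept their direction and call and 39 kept the direction only. Without the filter or the trend these were PRDX3, SELT, TKT, POR, BLVRB, GSR, CBR3 and GPX4, and under other scalings GPX4 and PARK7. The rest were left-out libraries, among them GSR with sgMETTL1.6 (adjusted p from 0.070 to 0.12).

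The replicate numbers were not used as pairs in the main fit. Deviations of same-numbered libraries from their group means correlated at -0.005 (sgNS with sgMETTL1.3), 0.207 (sgNS with sgMETTL1.6) and 0.145 (sgMETTL1.3 with sgMETTL1.6). Whether the replicate numbers mark a shared batch was not tested. With the replicate block 6916, 6175 and 3615 genes were called (sgMETTL1.3 and sgMETTL1.6 against sgNS, and between the guides), not 6385, 5563 and 2510. Pathway genes called were then 64, 57 and 48, not 58, 52 and 40. Depth sets no stated limit, since TPM does not keep it, and OSGIN1, AMER1 and other genes of a few TPM have the least certain sizes.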
